A study of Mus musculus with 6 samples.

Results

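YAP/TAZ effectors and target genes were followed in basal cells of the mouse prostate as 10 genes fixed by name. They were the coactivators Yap1 and Wwtr1 (which encodes TAZ), their DNA-binding partner Tead1, and the target or pathway genes Cyr61, Ctgf, Ankrd1, Amotl2, Ajuba, Lats2 and Thbs1. Cyr61 and Ctgf are called Ccn1 and Ccn2 in newer annotations. All 10 had a value among the 25272 genes to which the deposited transcripts could be matched, and 9 reached the mean of 1 FPKM over the 6 libraries that was required for testing. FPKM are fragment counts scaled to transcript length and to the size of the library.

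The libraries came from 3 samples of proximal and 3 samples of distal duct basal cells of C57BL/6 mice aged 8 to 12 weeks. Proximal ducts lie next to the urethra and distal ducts toward the tips of the gland, and the comparison asks how basal cells differ between them. Cells were dissociated and sorted with fluorescent antibodies, and the labels do not give the antibodies or gates of the basal sort, whether the sorted cells were cultured, whether animals were pooled or whether libraries were made from separate animals. Their growth text describes a culture of dissociated cells and calls the result stromal cells. P-values here thus reflect how far these libraries differ among themselves, and that spread may be technical.

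YAP and TAZ are the transcriptional coactivators at the end of the Hippo pathway. In that pathway the kinases MST1/2 activate LATS1/2, which phosphorylate YAP and TAZ and keep them out of the nucleus. When this kinase cascade is inactive, as in spread or mechanically loaded cells, YAP and TAZ enter the nucleus and bind TEAD proteins on target genes, among them secreted matricellular proteins and inhibitors of the pathway itself. Their activity is set mainly by phosphorylation and location of the proteins, which RNA levels do not measure.

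Depth can be read roughly from the deposited intervals, and came to 20800000 to 26600000 fragments per library. Pearson correlations across genes lay between 0.9684 and 0.9869 for libraries of the same region and between 0.9499 and 0.9705 for libraries of different regions, and genes are not independent replicates. The basal keratins Krt5 and Krt14 averaged 618 ± 48.9 and 2185 ± 80.3 FPKM in proximal cells, and 379.9 ± 50.7 and 2716 ± 597 FPKM in distal cells (SD, n = 3 each), so the defining basal keratins were abundant in both regions. Trp63, the transcription factor of the basal lineage, was at 34.2 ± 5.79 FPKM in proximal cells and 58.5 ± 21.2 FPKM in distal cells (SD, n = 3 each). Krt8 and Krt18, keratins of luminal cells, were present too, at means of 598 and 1279 FPKM in proximal cells and 546 and 1266 FPKM in distal cells. Of the basal markers 3 of 8 were higher in proximal cells and 0 lower, and of the luminal markers 0 of 7 tested were higher and 2 lower (limma). Over all genes tested, 4.52% were called higher and 2.50% lower. The basal markers Krt14, Krt17 and Trp63 averaged lower in proximal cells without passing, and Trp63 passed as lower in 3 of 16 alternative fits. Krt5 was among the 3 called higher, and its call was lost in 5 of the 16 fits (limma, adjusted p up to 0.106).

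None of the 9 tested members passed the test between duct regions (limma with Benjamini-Hochberg adjustment over all genes, adjusted p under 0.05), against 7.02% of the 10255 genes tested. Of all genes tested, 4.52% were higher and 2.50% were lower in proximal cells, but this split turned when libraries were left out, with 881 genes higher and 1328 lower without both libraries numbered 1. At an unadjusted p under 0.05 there were 4 members, Wwtr1, Tead1, Cyr61 and Ajuba, against 24.0% of all genes tested. The members did not share a direction: 5 had a positive and 4 a negative log2 fold change, with a median of 0.18 beside -0.01 over all genes tested. The median was 0.09 without distal replicate 1, 0.10 without proximal replicate 1 and 0.06 without both. Fold changes are proximal minus distal of log2(FPKM + 1), a scale on which changes of low genes come out too small. In bulk samples of this kind, fewer cells of a type and less RNA per cell cannot be told apart.

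**Figure D1:**
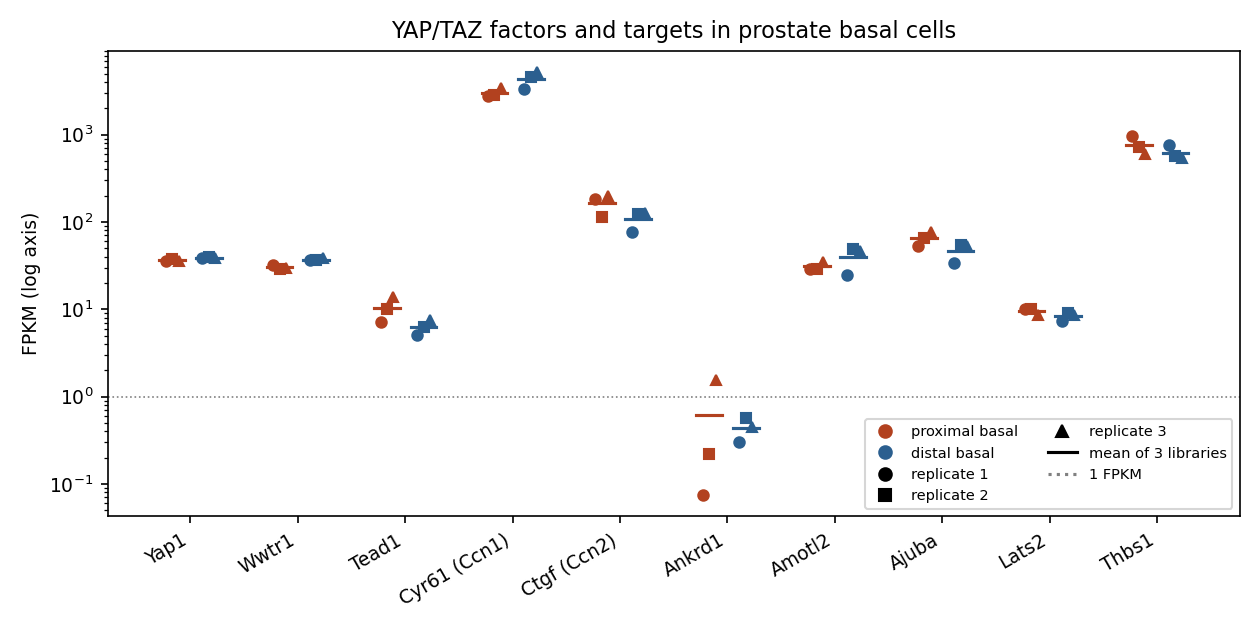
FPKM of the 10 members (log axis) in the 3 proximal and 3 distal basal libraries; symbols mark replicates and bars the mean of 3 libraries. Cyr61 stands highest at 2806 to 5236 FPKM, and Ankrd1 is the only member with a mean below 1 FPKM.

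Yap1 (chr9:7931999-8004596, minus strand, GRCm38) encodes the coactivator YAP. It was at 36.0, 37.8 and 35.7 FPKM in the proximal libraries, against 38.4, 39.3 and 38.6 FPKM in the distal libraries. The groups did not overlap, as in 28.8% of all genes tested, but the gap was small beside the error of the fit, with a log2 fold change of -0.09 ± 0.09 (SE from limma, adjusted p = 0.597) and a 95% interval of -0.29 to 0.12. Wwtr1 (chr3:57455649-57575910, minus strand), which encodes TAZ, was at 32.5, 29.0 and 29.4 FPKM in the proximal libraries, against 36.5, 36.3 and 38.4 FPKM in the distal libraries. All 3 proximal libraries lay below all 3 distal ones, and the log2 fold change was -0.28 ± 0.10 (SE from limma, adjusted p = 0.12) with an interval of -0.50 to -0.06. The coactivators were thus close in level per length, with a ratio of Wwtr1 to Yap1 of 0.766 to 0.904 in proximal and 0.925 to 0.994 in distal libraries.

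Both full-length forms of Yap1 in the deposited tables were expressed in every library. They differ in length by 48 bases, the length of exon 6 of 9 of the longer GENCODE form, a coding exon that the shorter form skips. It is shown because its length is the whole difference between the expressed forms. The exon lies on the minus strand at chr9:7950492-7950539 (GRCm38, the assembly also called mm10).
Yap1 exon 6: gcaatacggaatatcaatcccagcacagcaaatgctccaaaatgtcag
The longer form held 62.5%, 69.7% and 65.2% of Yap1 FPKM in the proximal libraries, against 70.9%, 67.1% and 63.4% in the distal libraries. These shares overlapped between the groups. Cufflinks divides fragments between forms that share nearly all of their sequence, so the shares are estimates.

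Tead1 (chr7:112679318-112906807, plus strand) encodes a TEAD factor that carries YAP and TAZ to DNA. It was at 7.19, 10.2 and 13.7 FPKM in the proximal libraries, against 5.04, 6.29 and 7.51 FPKM in the distal libraries. Proximal replicate 1 lay within the distal range and the other proximal libraries above it. The log2 fold change was 0.62 ± 0.22 (SE from limma, adjusted p = 0.144), with an interval of 0.10 to 1.14. Without proximal replicate 1 it was 0.83 ± 0.19 (SE) and passed the test (limma, adjusted p = 0.0392), as did 10.8% of all genes in that fit. Without proximal replicate 3 it was 0.41 ± 0.21 (SE from limma, adjusted p = 0.353). Of its 4 deposited forms 2 were above 0, and they differ by 75 bases, which is the sum of a 63-base and a 12-base coding exon of the longer GENCODE form. The larger of these, shown because the forms differ mostly by it, is exon 4 of 14 on the plus strand at chr7:112841888-112841950 (GRCm38).
Tead1 exon 4: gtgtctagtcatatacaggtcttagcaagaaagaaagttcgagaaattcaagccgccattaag
The form with both exons held 70.5%, 68.1% and 71.0% of Tead1 FPKM in the proximal libraries, against 57.9%, 74.6% and 67.0% in the distal libraries, and the groups overlapped. The start of Tead1 overlaps the gene 2310014F06Rik, which was low in every library.

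The other TEAD genes were read from the same fit. Tead4 was at 6.99, 11.6 and 13.3 FPKM in the proximal libraries, against 5.78, 6.49 and 6.57 FPKM in the distal libraries. It had no overlap between groups and a log2 fold change of 0.63 ± 0.21 (SE from limma, adjusted p = 0.114). Tead3 averaged 4.18 ± 0.427 FPKM in proximal cells and 5.06 ± 0.534 FPKM in distal cells (SD, n = 3 each), the opposite order, and did not pass (limma, adjusted p = 0.338). Tead2 was at most 0.504 FPKM in any library and was not tested. Summed over Tead1 to Tead4, TEAD transcripts came to 18.1, 26.6 and 31.8 FPKM in proximal libraries, against 15.6, 18.6 and 18.9 FPKM in distal libraries.

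Promoter windows were available for 7 of the members, Yap1, Wwtr1, Cyr61, Ankrd1, Amotl2, Ajuba and Lats2, from RefSeq (GRCm38.p6), each from 250 bases before to 50 bases after an annotated start. The TEAD core motif GGAATG, read on both strands (CATTCC on the other), occurred in a window of all 7, against 14.7% of all 32851 promoter windows and 16.6% of all 27025 genes with a window. Ajuba and Ankrd1 held 2 matches each, and 1.36% of all windows held 2 or more. The 250 bases before the start are printed for 4 target genes, 5′ to 3′ on the strand of the gene, with the matches in capitals.
Cyr61, chr3:145649986-145650235, minus strand: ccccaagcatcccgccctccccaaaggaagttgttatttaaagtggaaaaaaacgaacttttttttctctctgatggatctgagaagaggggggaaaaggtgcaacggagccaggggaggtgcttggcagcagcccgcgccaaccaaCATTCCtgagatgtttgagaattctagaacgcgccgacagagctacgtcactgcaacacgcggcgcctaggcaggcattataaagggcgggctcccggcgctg
Amotl2, chr9:102717554-102717803, plus strand: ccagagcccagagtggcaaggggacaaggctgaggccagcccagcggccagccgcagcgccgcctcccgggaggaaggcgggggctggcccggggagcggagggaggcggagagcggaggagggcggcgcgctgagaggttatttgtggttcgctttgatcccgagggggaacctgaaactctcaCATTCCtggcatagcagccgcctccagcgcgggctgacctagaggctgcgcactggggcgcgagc
Ajuba, chr14:54577662-54577911, minus strand: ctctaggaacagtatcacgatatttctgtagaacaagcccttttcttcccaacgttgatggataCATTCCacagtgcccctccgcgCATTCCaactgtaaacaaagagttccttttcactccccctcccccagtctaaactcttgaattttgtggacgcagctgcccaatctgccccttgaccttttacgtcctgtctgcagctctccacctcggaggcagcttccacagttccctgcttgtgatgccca
Ankrd1, chr19:36119845-36120094, minus strand: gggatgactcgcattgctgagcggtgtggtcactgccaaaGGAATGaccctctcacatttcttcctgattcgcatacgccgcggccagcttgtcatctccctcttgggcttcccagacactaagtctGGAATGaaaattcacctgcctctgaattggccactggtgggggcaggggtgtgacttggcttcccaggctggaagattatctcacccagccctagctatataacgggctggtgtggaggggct
The match began 103 bases before the start in Cyr61, 65 in Amotl2, 186 and 164 in Ajuba, and 210 and 123 in Ankrd1. In Wwtr1 it began 136 or 170 bases before the start, depending on the annotated start, in Yap1 141 bases before it and in Lats2 4 bases after it. Another annotated start of Lats2 had no match in its window, so 8 of the 9 windows of the members held one. The longer string CAGGAATGT, or ACATTCCTG on the other strand, was shared by Cyr61, Amotl2 and Yap1, and occurred in 0.511% of all windows; it contains the core motif and was chosen after these windows were read. A match is a description of the letters and does not show binding.

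Cyr61 and Ctgf, the matricellular targets most often used as readouts of YAP and TAZ, had fold changes of opposite sign, and neither passed the test. Cyr61 (chr3:145646976-145649981, minus strand) encodes CCN1, a secreted protein that binds integrins. It was at 2806, 2816 and 3432 FPKM in the proximal libraries, against 3302, 4590.1 and 5236 FPKM in the distal libraries. Proximal replicate 3 lay above distal replicate 1, so the groups overlapped, and the log2 fold change was -0.52 ± 0.21 (SE from limma, adjusted p = 0.181) with an interval of -1.0 to -0.03. Under quantile scaling it was -0.31 ± 0.16 (SE from limma, adjusted p = 0.280). Without distal replicate 1 it was -0.71 ± 0.16 (SE) and passed (limma, adjusted p = 0.0412), as did 11.0% of all genes in that fit. Cyr61 ranked between 2 and 7 among the 25272 genes by FPKM in every library, so it was among the most abundant transcripts of these cells in both regions.

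Ctgf (chr10:24595442-24598683, plus strand) encodes CCN2, a related protein that binds matrix and growth factors. It was at 181, 113 and 196 FPKM in the proximal libraries, against 76.6, 123 and 127 FPKM in the distal libraries. Proximal replicate 2 lay within the distal range. The log2 fold change was 0.58 ± 0.26 (SE from limma, adjusted p = 0.218), with an interval of -0.01 to 1.17. It was 0.34 without distal replicate 1, and 0.25 ± 0.25 without both libraries numbered 1 (SE from limma, adjusted p = 0.382 and 0.501). Leaving out proximal replicate 2 or distal replicate 3 raised it to 0.82 and 0.71 (limma, adjusted p = 0.141 and 0.256). The deposited interval of a Ctgf value was at most 5.24% to either side, which is narrower than the spread between replicates.

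The ratio of Cyr61 to Ctgf was 15.5, 25.0 and 17.5 in the proximal libraries, against 43.1, 37.4 and 41.3 in the distal libraries. The groups did not overlap in this ratio. How many other pairs of genes have ratios that part the groups was not counted. The exact two-sided permutation test on the log2 ratio gave p = 0.1, the smallest that 3 against 3 libraries allow, and 0.133 when adjusted over the 4 ratios computed. The ratios were chosen after the values were seen, a choice that the adjustment over 4 ratios does not cover, so the p-values are descriptions only. The other 3 were Amotl2 to Ajuba and Wwtr1 to Yap1, each also with p = 0.1 (exact permutation), and Tead1 to Tead4, with p = 1.00 (exact permutation).

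**Figure D2:**
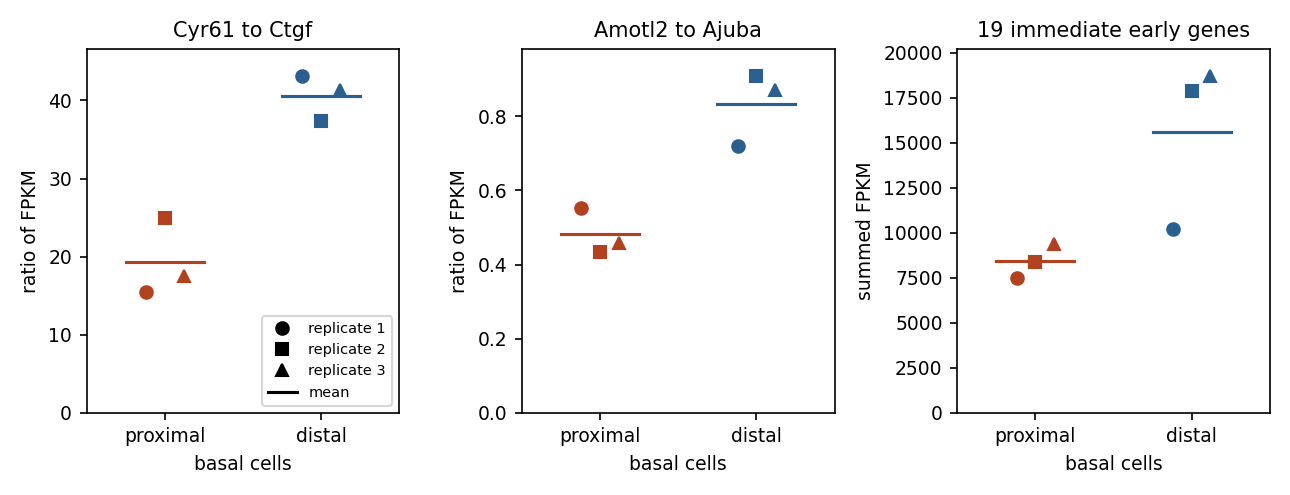
Ratio of Cyr61 to Ctgf, ratio of Amotl2 to Ajuba (both of FPKM) and summed FPKM of 19 immediate early and dissociation genes in proximal and distal basal libraries; symbols mark replicates and bars the mean of 3. The Cyr61 to Ctgf ratio is 15.5 to 25.0 in proximal and 37.4 to 43.1 in distal libraries, and distal replicate 1 has the lowest immediate early sum of its group, 10223 FPKM.

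Thbs1 (chr2:118111876-118127133, plus strand) encodes thrombospondin 1, a matrix protein that can activate latent TGF-beta. It was at 954, 716 and 606 FPKM in the proximal libraries, against 756, 564 and 539.6 FPKM in the distal libraries. Replicate 1 was the highest library of each group, and the groups overlapped. The log2 fold change was 0.28 ± 0.20 (SE from limma, adjusted p = 0.437), with an interval of -0.18 to 0.75. It was 0.10 without proximal replicate 1, and 0.43 without proximal replicate 3 or without distal replicate 1. Ankrd1 (chr19:36111961-36120099, minus strand) encodes a muscle ankyrin repeat protein that responds to strain. It was at 0.0742, 0.219 and 1.53 FPKM in the proximal libraries, against 0.305, 0.564 and 0.453 FPKM in the distal libraries. It stayed below the level required for testing, and proximal replicate 3 alone exceeded 1 FPKM. The deposited interval in proximal replicate 1 ran from 0 to 0.160 FPKM, below those of distal replicate 2 (0.342 to 0.786 FPKM) and distal replicate 3 (0.239 to 0.667 FPKM), and it overlapped that of distal replicate 1 (0.121 to 0.489 FPKM).

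Amotl2, Ajuba and Lats2 restrain or tune the pathway and are themselves targets. Amotl2 (chr9:102716672-102733418, plus strand) encodes an angiomotin-like protein that holds YAP in the cytoplasm. It was at 29.1, 28.7 and 35.1 FPKM in the proximal libraries, against 24.4, 49.0 and 46.2 FPKM in the distal libraries. Distal replicate 1 was the lowest of all 6 libraries and the other distal libraries the highest. The log2 fold change was -0.30 ± 0.25 (SE from limma, adjusted p = 0.507), with an interval of -0.87 to 0.27, and without distal replicate 1 it was -0.61 ± 0.12 (SE) and passed in the same fit (limma, adjusted p = 0.0278). Without distal replicate 2 it was -0.12 and without distal replicate 3 it was -0.16 (limma, adjusted p = 0.860 and 0.807).

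Ajuba (chr14:54567472-54577558, minus strand) encodes a LIM protein that inhibits LATS kinases at cell junctions. It was at 52.7, 66.3 and 76.4 FPKM in the proximal libraries, against 33.9, 54.0 and 53.0 FPKM in the distal libraries. Proximal replicate 1 fell just below 2 distal libraries, and the log2 fold change was 0.48 ± 0.21 (SE from limma, adjusted p = 0.207) with an interval of 0.00 to 0.95. Without distal replicate 1 it was 0.26 ± 0.16 (SE from limma, adjusted p = 0.333). Most of the Ajuba signal came from the form with the full gene span, at 41.1, 55.0 and 55.4 FPKM in the proximal libraries, against 25.1, 39.4 and 37.7 FPKM in the distal libraries. The remainder was a shorter form that GENCODE lists as a retained intron. The ratio of Amotl2 to Ajuba was 0.433 to 0.552 in proximal and 0.719 to 0.908 in distal libraries, with no overlap.

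Lats2 (chr14:57689662-57758388, minus strand) encodes the kinase that phosphorylates YAP and TAZ. It was at 9.99, 9.95 and 8.63 FPKM in the proximal libraries, against 7.25, 9.07 and 8.64 FPKM in the distal libraries. The groups overlapped, with a log2 fold change of 0.18 ± 0.13 (SE from limma, adjusted p = 0.432) and an interval of -0.11 to 0.47. Without distal replicate 1 it was 0.09. Its paralog Lats1 averaged 12.6 FPKM in proximal cells and 13.2 FPKM in distal cells and did not pass (limma, adjusted p = 0.783).

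**Figure D3:**
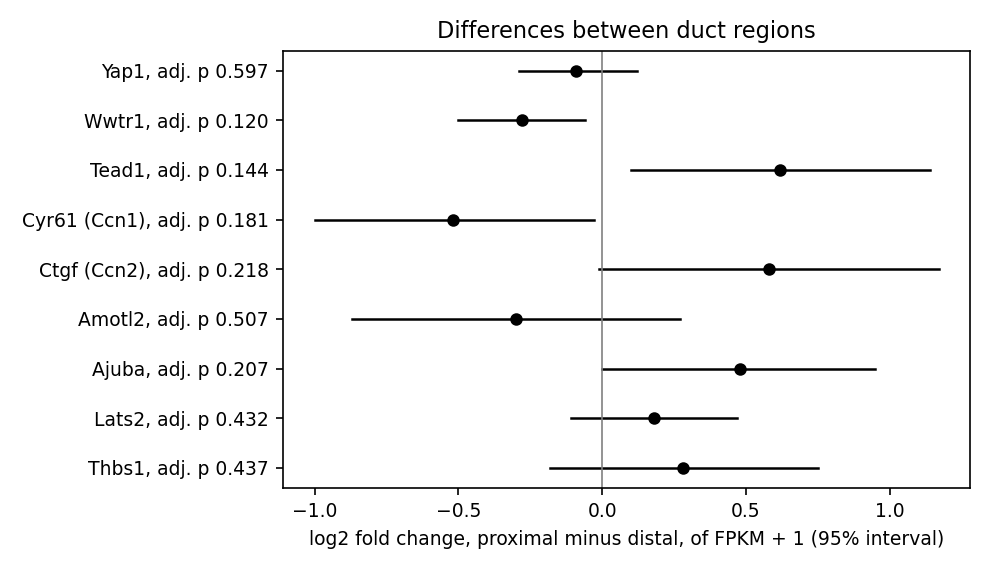
Log2 fold change of the 9 tested members, proximal minus distal, on the log2(FPKM + 1) scale, with 95% intervals and limma adjusted p. No member passes the adjusted threshold, and the point estimates lie between -0.52 for Cyr61 and 0.62 for Tead1.

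Some members passed in other fits, and leaving out libraries was one way in which calls changed. Distal replicate 1 was the lowest of the 6 libraries for 5 of 10 members, Tead1, Ctgf, Amotl2, Ajuba and Lats2, and the highest for 0. Proximal replicate 3 was the highest for 4, Tead1, Ctgf, Ankrd1 and Ajuba. How often a library was the lowest or highest over all genes was not counted, so these counts cannot be read as particular to the members. Distal replicate 1 also had the lowest depth and the fewest genes at 1 FPKM or more, 9910. Without both libraries numbered 1, 5 of the 9 tested members passed (limma, adjusted p from 0.0246 to 0.0354), against 21.5% of the 10255 genes tested. Tead1 and Ajuba were higher in proximal cells there, with log2 fold changes of 0.71 and 0.41, and Cyr61, Amotl2 and Wwtr1 were lower, with -0.66, -0.57 and -0.34. That fit has 2 libraries a group.

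**Figure D4:**
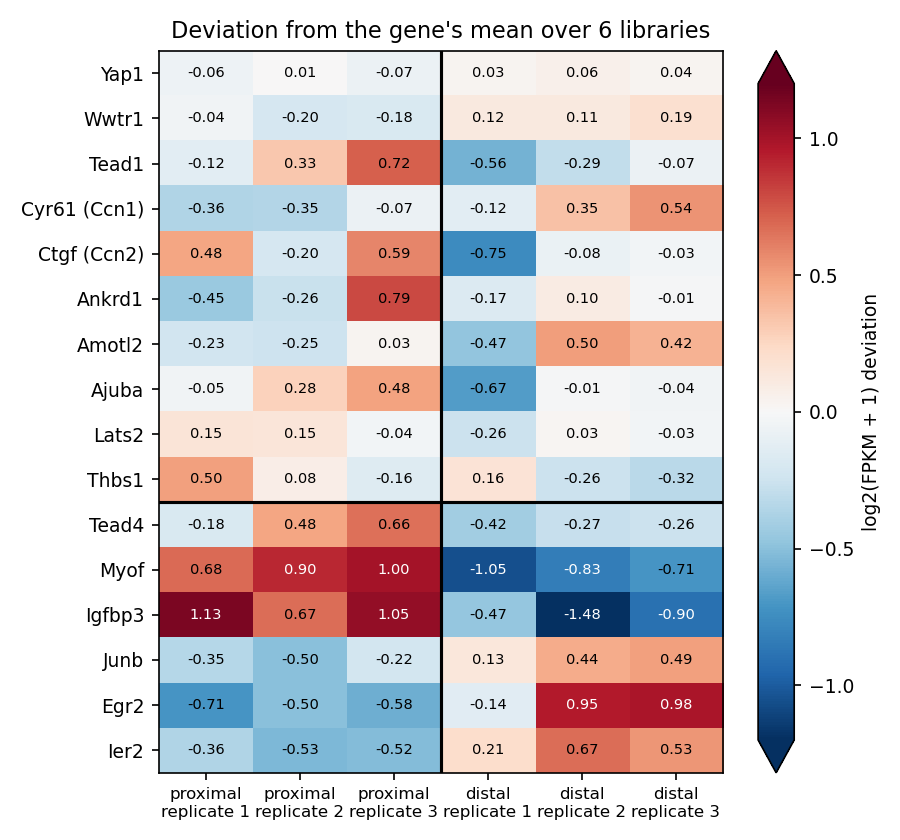
Deviation of each member (above the line) and of Tead4, Myof, Igfbp3, Junb, Egr2 and Ier2 (below it) from its own mean over the 6 libraries, in log2(FPKM + 1) units. Ctgf, Ajuba and Tead1 deviate by -0.75, -0.67 and -0.56 in distal replicate 1, while Myof and Igfbp3 separate the duct regions in every library.

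Cyr61 is also an immediate early gene, induced within minutes of serum or mechanical stimulation. Immediate early and dissociation genes were lower in proximal cells in 3 of 19 tested, none was higher and 16 did not pass (limma), with a median log2 fold change of -0.90. Of all genes tested, 2.50% were called lower, and the median was -0.01. In the list 18 of 19 had a negative log2 fold change, beside 5286 of the 10255 genes tested. At an unadjusted p under 0.05 (limma) there were 14 of 19, against 24.0% of all genes tested. The 3 called genes were Ier2, Junb and Egr2, with log2 fold changes of -0.95, -0.71 and -1.19 (limma, adjusted p = 0.00851, 0.0282 and 0.0431). The call of Ier2 was lost without proximal replicate 2 (limma, adjusted p = 0.0501). Those of Junb and Egr2 were lost on leaving out any of proximal replicates 2 and 3 and distal replicates 2 and 3, and that of Egr2 also without proximal replicate 1. Both were lost with no filter on low genes, and Egr2 with no variance trend (limma, adjusted p = 0.0895 for Junb, 0.0998 and 0.0521 for Egr2). The highest adjusted p over all settings was 0.136 for Junb and 0.168 for Egr2 (limma). The summed level of the 19 genes was 7492, 8379 and 9397 FPKM in proximal libraries, against 10223, 17905 and 18704 FPKM in distal libraries. Distal replicate 1 was the lowest of its group here, as it was for 8 of the 10 members, and the share over all genes was not counted. The part of the immediate early genes in the difference of Cyr61 and Amotl2 was not tested.

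Cyr61, Ctgf and Thbs1 are also made by stromal and endothelial cells. Endothelial markers summed to 26.3, 26.0 and 18.3 FPKM in proximal libraries, against 11.9, 2.38 and 4.90 FPKM in distal libraries, and 4 of 6 tested were higher by the test. The share called higher over all genes tested was 4.52%, the figure to set beside each marker list here. Fibroblast markers other than Dcn summed to 43.7, 46.5 and 42.3 FPKM in proximal libraries, against 23.9, 22.6 and 30.9 FPKM in distal libraries. In the whole list of 8, 4 of 6 tested were higher and none lower. Dcn alone stood at 641 to 710 FPKM in proximal and 737 to 789 FPKM in distal libraries. Smooth muscle and pericyte markers summed to 58.9 to 105 FPKM in proximal and 69.8 to 75.1 FPKM in distal libraries (2 of 8 higher), and nerve and glia markers to 12.2 to 17.5 FPKM in proximal libraries, against 2.79 to 4.39 FPKM in distal libraries (3 of 4 tested higher). Leukocyte markers summed to 10.8 to 13.2 FPKM in proximal and 12.4 to 14.1 FPKM in distal libraries, with 0 of 3 tested called. Among them Cd68 was at 4.40 to 10.2 FPKM over all libraries, Cd52 at 0.778 to 5.47 FPKM and Lyz2 at 1.00 to 4.35 FPKM, while Ptprc was at most 0.0436 FPKM and Cd3e at most 0.0550 FPKM. Tek was listed at 0 in 1 distal library, and no other endothelial, fibroblast, muscle or glia marker was at 0. The part of these cells in the values of the members and of the other pathway genes and targets was not tested.

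Of the Hippo kinases, their scaffolds and junctional regulators, which act upstream of YAP and TAZ, 1 passed the test. The share of all genes tested that passed was 7.02%. Of 24 listed genes 21 were tested, 0 were higher, 1 was lower and 20 did not pass (limma), with a median log2 fold change of 0.07. The lower gene was Rassf1, which encodes a scaffold that binds the MST kinases. It was at 107, 90.0 and 102 FPKM in the proximal libraries, against 147, 145 and 148 FPKM in the distal libraries, with a log2 fold change of -0.55 ± 0.10 (SE from limma, adjusted p = 0.0183). Its call was lost on leaving out proximal replicate 2 or 3 or distal replicate 2 or 3, where the highest adjusted p was 0.0903 (limma). The kinase genes Stk3 and Stk4 averaged 5.40 and 6.89 FPKM in proximal cells and 5.55 and 6.59 FPKM in distal cells, and Nf2, which encodes the tumor suppressor merlin, averaged 14.3 FPKM in proximal cells and 13.6 FPKM in distal cells. Among the TEAD partners and cofactors, 3 of 7 were tested and none passed (limma), with 1 at an unadjusted p under 0.05, Tead4. Vgll4, which competes with YAP for TEAD, averaged 25.7 FPKM in proximal cells and 24.7 FPKM in distal cells, and Vgll1 and Vgll2 were listed at 0 in all libraries.

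Of 22 further YAP/TAZ targets, 21 were tested, 2 were higher in proximal cells, 0 were lower and 19 did not pass (limma), with a median log2 fold change of -0.01. Over all genes tested, 4.52% were called higher and 2.50% lower. Myof, which encodes the membrane repair protein myoferlin, was at 15.7, 18.5 and 19.8 FPKM in the proximal libraries, against 4.03, 4.88 and 5.38 FPKM in the distal libraries. Igfbp3, an insulin-like growth factor binding protein, was at 71.4, 51.7 and 67.8 FPKM in the proximal libraries, against 23.0, 10.9 and 16.8 FPKM in the distal libraries. Every proximal library stood above every distal one for both genes. Several endothelial, fibroblast and glia markers were also higher in proximal cells, and the part of such cells in these differences was not tested. Myof had a log2 fold change of 1.72 ± 0.14 and Igfbp3 one of 1.90 ± 0.25 (SE from limma, adjusted p = 0.000555 and 0.00491), and both calls held in all 16 alternative settings. F3, which encodes tissue factor, did not pass, at 1465 ± 337 FPKM in proximal cells and 1440.1 ± 184 FPKM in distal cells (SD, n = 3 each) and an interval of the log2 fold change of -0.44 to 0.45. Among all further targets tested, 10 of the 21 had a positive and 11 a negative log2 fold change.

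The genes most like Yap1, Cyr61 and Ctgf over the 6 libraries were taken from 6424 genes, by Pearson correlation of log2(FPKM + 1). These were the genes that averaged 5 FPKM or more, leaving out the members, mitochondrial genes and names of predicted genes, clones and pseudogenes. The 6 points include the difference between the duct regions, and the genes are the highest of many, so the coefficients are descriptions. Those most like Yap1 were Arhgap31, Ppp1r13l and Prdx6 (r = 0.989, 0.985 and 0.980). Those most like Cyr61 were Pdk4, Rasd1 and Stard4 (r = 0.999, 0.998 and 0.992). Pdk4, which encodes a kinase of pyruvate dehydrogenase, was at 43.1, 43.4 and 52.5 FPKM in the proximal libraries, against 49.4, 69.0 and 78.5 FPKM in the distal libraries. Among those most like Ctgf were Mbd1 and Mmadhc (r = 0.996 and 0.984).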

How the data were processed

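Expression was measured by RNA sequencing in 3 proximal and 3 distal basal libraries, made per the labels' protocols from amplified cDNA primed with random and poly d(T) primers. The submitters' processing notes name bcl2fastq (1.8.3), TopHat, Cufflinks and the build mm10. Per the file headers, each deposited file gives FPKM with an interval for 63241 transcripts of 1 library, and a coverage signal that is not scaled to depth; coverage was used only to look at the files. Transcript identifiers have the form of UCSC known genes, the version of the annotation is not stated, and the tables pair no gene names with them.

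Transcripts were matched to GENCODE M21 (GRCm38) by span and spliced length. Span overlap times length ratio had to reach 0.5 for a close match, and any other gene had to stay under 0.8 of that score. Other transcripts of at least 200 bases were matched where exons of 1 gene covered at least 0.8 of their length, exons of any other at most 0.1, and at least 0.95 of the span lay in the gene. This placed 53323 transcripts holding 93.9% of the FPKM. All 25 transcripts of the members matched with scores of 0.879 to 1.0, and 11 of them were at 0 in every library. FPKM were summed per gene. Jund had no match.

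Genes that averaged 1 FPKM or more were tested with limma (3.58.1, under R 4.3.3) on log2(FPKM + 1), with a variance trend, two-sided, over all 6 libraries without covariates, calling a Benjamini-Hochberg adjusted p under 0.05. This called 464 genes higher and 256 lower, a split that changed when libraries were left out. The fit was checked on simulated data with 200 changed genes. It recovered 58.2% of changes of 0.5 on the log2 scale, 98.5% of changes of 1 and 100% of changes of 2. Of its calls, 3.39% were false. A change of about 0.5 can thus be missed by this test. Depth was derived from the width of the intervals of transcripts that overlap no other, taking the interval as 2 standard deviations of a Poisson count to either side. Alternatives were other pseudocounts, filters and scalings, no variance trend, a replicate block, close matches only and left-out libraries. Strand is not stated to have been used, so antisense transcripts cannot be told apart. Named genes are the 10 members, up to 6 called genes with the smallest p of each pathway list and of the immediate early list, the 3 genes most like each of Yap1, Cyr61 and Ctgf, and the identity keratins with Trp63; other genes were named after their values were seen, and a few genes that the rule would name are not reported here. The members and lists were chosen with earlier results of these data known.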

Additional observations from a re-analysis of the deposited data

How the results depend on the processing

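All 144 values of the 9 tested members under 16 alternatives kept their direction, 133 also kept their side of the threshold, and 11 passed it. The filters, the variance trend, the replicate block and close matches leave a member's log2 fold change unchanged. Their agreement in direction was thus fixed in advance. The count of called members, 0 as reported, was 3 with the replicate block (Ajuba, Cyr61 and Tead1, limma, adjusted p = 0.0185, 0.0430 and 0.0198), 5 without both libraries numbered 1, and 0 to 2 on leaving out 1 library. The 3 called genes of the other Hippo and YAP/TAZ lists became 10 with the block, 11 without both libraries numbered 1, and 2 to 7 on leaving out 1 library. Over all genes, 720 calls became 441 with a filter at 5 FPKM, 1612 with the block (15.7% of those tested), 2209 without both libraries numbered 1, and 237 to 1126 on leaving out 1 library. Genes called higher and lower numbered 464 and 256 as reported, 880 and 732 with the block, and 881 and 1328 without both libraries numbered 1. Leaving out distal replicate 1 alone gave 512 higher and 614 lower, and leaving out proximal replicate 1 alone gave 550 higher and 553 lower. On leaving out any other library, 192 to 266 were called higher and 45 to 72 lower. The cause was not tested, apart from the fewer genes tested with the filter. Krt18 had a log2 fold change of -0.06 to 0.24 on leaving out 1 library, negative without proximal replicate 1 (-0.01), distal replicate 2 (-0.06) or distal replicate 3 (-0.05). The replicate numbers are not stated to mark a pairing. Deviations from the group means of same-numbered libraries correlated across genes at 0.383, 0.045 and 0.286. Those of differently numbered libraries correlated at -0.37 to 0.16. Proximal replicate 2 and distal replicate 2 each correlated better with another number than with their own. With 3 libraries a group these values do not decide whether the numbers mark a pairing, so the block was kept as an alternative. Depth limits the low values: the deposited interval was at most 0.581% to either side for Cyr61 and 24.6% to 108% for Ankrd1.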

Other observations

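Relatives of the members were chosen after the values were seen. Of the CCN family, Cyr61 and Ctgf were the abundant genes. Ccn3 was at 1.34, 1.2 and 1.28 FPKM in the proximal libraries, against 0.842, 0.642 and 0.601 FPKM in the distal libraries, so the groups did not overlap, and its mean was below the level required for testing. Ccn4 was at most 0.471 FPKM, Ccn5 at most 0.200 FPKM and Ccn6 at most 0.0324 FPKM in any library. Among the thrombospondins, Thbs2 averaged 1.60 ± 0.270 FPKM in proximal cells and 1.60 ± 0.308 FPKM in distal cells (SD, n = 3 each), and Thbs3, Thbs4 and Comp were at most 0.582, 0.0338 and 0.195 FPKM.

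Within the angiomotins, Amotl1 averaged 30.4 ± 2.64 FPKM in proximal cells and 28.7 ± 1.73 FPKM in distal cells (SD, n = 3 each). Amot was at 0.656, 0.871 and 0.470 FPKM in the proximal libraries, against 1.04, 1.36 and 0.997 FPKM in the distal libraries, with no overlap and no test at this level. Of the LIM proteins related to Ajuba, Wtip was at 24.7, 20.0 and 20.1 FPKM in the proximal libraries, against 19.9, 18.3 and 16.7 FPKM in the distal libraries, and Limd1 averaged 17.7 and 16.9 FPKM in proximal and distal cells. Wtip and Limd1 did not pass (adjusted p = 0.313 and 0.820 from limma).

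Among the further targets that did not pass, Edn1, which encodes the peptide endothelin 1, was at 30.4, 30.5 and 40.7 FPKM in the proximal libraries, against 10.6, 18.7 and 22.8 FPKM in the distal libraries. The groups did not overlap, and its log2 fold change was 0.97 ± 0.26 (SE from limma, adjusted p = 0.0625). Fat1, an atypical cadherin of the Hippo list, was at 13.2, 14.0 and 13.0 FPKM in the proximal libraries, against 8.51, 11.0 and 10.3 FPKM in the distal libraries (limma, adjusted p = 0.0909).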
